A study of Mus musculus with 6 samples.

Results

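Of the 42747 gene rows counted in whole fetal mouse testes, 5 make up the group described here: Nr2f2, Tcf21, Maf, Dlk1 and Nes, genes of the stromal and Leydig cell progenitors that lie between the testis cords. They were chosen by symbol, all 5 were found in the count table, and all 5 were among the 18383 genes abundant enough to be tested. The 6 libraries came from testes of mice at embryonic day E16.5, 3 labelled cKO (read here as a conditional knockout) and 3 labelled WT. The title of the series places the protein kinase CK1α in Sertoli cells, the supporting cells inside the cords, and the gene of that kinase is Csnk1a1. The Cre line, the deleted part of the gene, the strain and any allele carried by the WT mice were not stated in the labels.

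The interstitium of the fetal testis holds steroid-producing fetal Leydig cells together with vessels, macrophages and a mesenchyme from which further Leydig cells, pericytes and stroma arise. Nr2f2 encodes the orphan nuclear receptor COUP-TFII, Tcf21 a basic helix-loop-helix factor and Maf the basic leucine zipper factor c-MAF, all active in that mesenchyme. Dlk1 encodes a transmembrane protein with EGF-like repeats related to Notch ligands, and Nes encodes nestin, an intermediate filament protein of perivascular progenitors in the testis. Signals from Sertoli cells, among them Desert hedgehog, act on these interstitial cells. None of the 5 genes is specific to them: Maf is also active in macrophages, and Nes in vessel walls and in nerve tissue. In whole organs a higher count may come from more cells of a type or from more RNA per cell, which cannot be told apart here. Levels are relative to the other transcripts of a library.

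Gene counts summed to between 15092619 and 17431546 per library. Csnk1a1 stood at 396, 405 and 377 CPM (counts scaled to a common library size with edgeR's TMM factors) in cKO libraries, against 371, 396 and 348 CPM in WT libraries, a log2 fold change of 0.08 (edgeR adjusted p = 0.798). A count over the whole gene in a whole organ does not check the labels. Sertoli cell markers summed to 1046 to 1409 CPM in cKO and 2790 to 3853 CPM in WT (values over 12 genes), and 11 of the 12 fell. The called genes with the smallest p were Defb19, Hsd17b3, Sox8, Cst9, Mro and Ptgds, with log2 fold changes of -3.31 to -1.92, and Amh, the anti-Müllerian hormone, fell by 2.41 (edgeR adjusted p = 0.00382). Inha was the gene not called (-0.57, edgeR adjusted p = 0.0925). Of all tested genes, 615 (3.35%) passed an adjusted p of 0.05, 276 higher (1.5%) and 339 lower (1.84%) in cKO. This count ran from 272 to 723 with 1 library left out. The pair of libraries that differed most within a group was cKO libraries 1 and 2 (chi-square per degree of freedom 40.9, against 13.6 to 19.4 for the other pairs).

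In cKO testes, Nr2f2, Tcf21, Maf and Dlk1 stood at 1.25 to 1.59 times their WT levels, and in each the lowest cKO library lay above the highest WT library. Nes stood at 1.16 times, with overlapping groups. None of the 5 passed the threshold in edgeR's quasi-likelihood test, where 1.5% of all tested genes were called higher and 1.84% lower. Before adjustment, 4 of the 5 had p under 0.05 with cKO higher and none with cKO lower (7.75% and 8.03% of tested genes). DESeq2 called 2 of the 5 higher and none lower (2.87% and 3.12% of tested genes), and limma-voom called none in either direction (1.46% and 1.82%). Groups that did not overlap, with cKO above WT, were found for 4 of the 5 and for 10.7% of tested genes. The median log2 fold change of the 5 was 0.39, and that of all tested genes 0.00264. The genes were picked with earlier results of these data known, so these shares are descriptive.

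**Figure D1:**
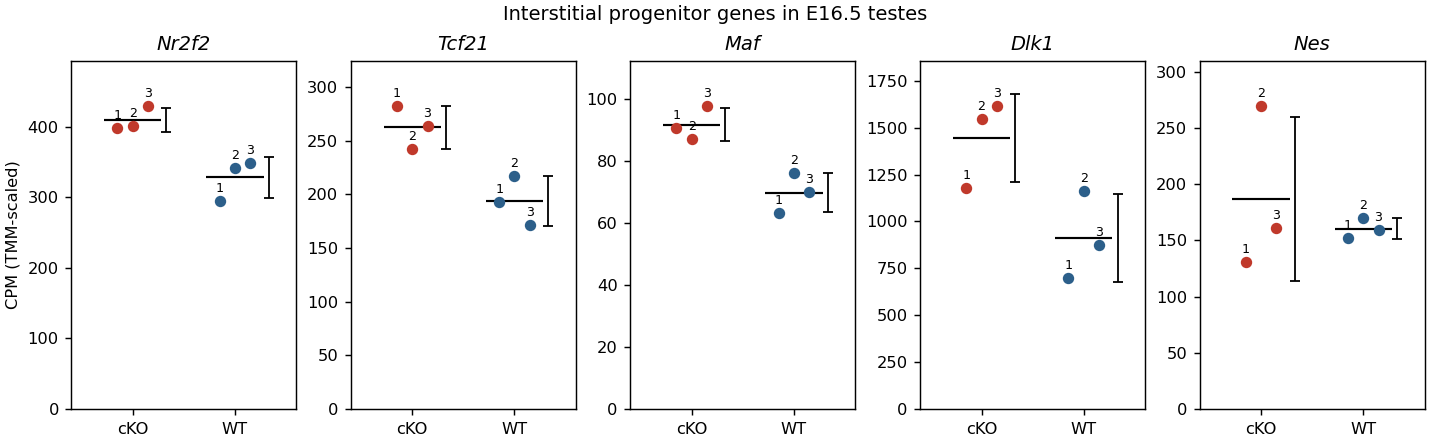
CPM of the 5 genes in each library (numbered points), with cKO in red to the left of WT in blue. Horizontal lines are group means and the bars beside them 1 SD (n = 3 each). The 3 cKO points lie above the 3 WT points for Nr2f2, Tcf21, Maf and Dlk1, while for Nes cKO library 2 stands alone at 269 CPM.

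Nr2f2, whose product represses or activates genes in mesenchyme of many organs, had 398, 401 and 429 CPM in cKO libraries 1, 2 and 3, against 295, 342 and 348 CPM in WT libraries 1, 2 and 3. The cKO values lay close together and the lowest WT value was that of library 1. The group means were 409 ± 16.7 CPM in cKO and 328 ± 29.4 CPM in WT (SD, n = 3 each). On the log2 scale cKO exceeded WT by 0.32 (SE 0.121, 95% confidence interval 0.05 to 0.58), which was not called (edgeR adjusted p = 0.222). Its value ran from 0.25 without WT library 1 to 0.36 without WT library 3, and no alternative fit called it. The gene lies on chromosome 7, minus strand, at positions 74757477 to 74773358 in the coordinates of the files, which are those of the C57BL/6NJ assembly. A processed transcript on the opposite strand, listed without a symbol, overlaps it and held 536 to 872 counts in cKO and 557 to 761 in WT, against 6036 to 7454 and 4733 to 5826 counts of Nr2f2. The labels do not state whether counting used strand, so reads of the shared stretch cannot be assigned with certainty.

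Promoter windows of Nr2f2, Tcf21, Dlk1 and Nes (4 of the 5 genes) were matched in the RefSeq table of build GRCm38.p6, from 250 bases before to 50 after the start. They were searched on both strands for 4 motifs, none of which overlapped another in these windows. The motif CTTTGAT, read by the TCF/LEF factors that act with β-catenin, occurs in 3.73% of all 32851 windows of that table. The motif GACCACCCA, read by the GLI factors of Hedgehog signalling, occurs in 0.253% of them. The E-box CAGCTG, a kind of site bound by factors of the Tcf21 class, occurs in 16.3%. The motif read by GATA factors, GATAAG, occurs in 7.44%. The Nr2f2 window holds 1 TCF/LEF match, starting 114 bases before the start site. The Dlk1 window holds 1 GATA match, starting 163 bases before it. The windows of Tcf21 and Nes hold none of the 4 motifs. The windows with a match are shown with the match in capitals, 5′ to 3′ on the strand of the gene, Nr2f2 from chr7:70366697-70366996 (minus strand) and Dlk1 from chr12:109452573-109452872 (plus strand).
Nr2f2: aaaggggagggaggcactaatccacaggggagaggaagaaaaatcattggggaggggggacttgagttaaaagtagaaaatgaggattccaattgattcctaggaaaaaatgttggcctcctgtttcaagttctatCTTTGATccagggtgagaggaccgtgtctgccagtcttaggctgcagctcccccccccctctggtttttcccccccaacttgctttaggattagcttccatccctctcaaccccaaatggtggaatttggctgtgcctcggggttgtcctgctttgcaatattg
Dlk1: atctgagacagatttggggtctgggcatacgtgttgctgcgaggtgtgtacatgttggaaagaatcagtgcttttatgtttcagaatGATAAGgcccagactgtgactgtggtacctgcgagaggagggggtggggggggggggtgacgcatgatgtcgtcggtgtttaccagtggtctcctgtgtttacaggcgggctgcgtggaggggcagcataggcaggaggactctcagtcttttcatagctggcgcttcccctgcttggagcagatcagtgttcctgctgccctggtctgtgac

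A match is a string of letters and no evidence of binding.

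Tcf21, a factor that marks progenitors of several interstitial lineages in the gonad, had 282, 242 and 264 CPM in cKO libraries, against 193, 217 and 171 CPM in WT libraries. The groups did not overlap, and WT library 3 was lowest. Means were 263 ± 19.9 CPM in cKO and 194 ± 22.9 CPM in WT (SD, n = 3 each), a log2 fold change of 0.44 (SE 0.128, 95% confidence interval 0.16 to 0.72; edgeR adjusted p = 0.102). It was not called by edgeR or limma-voom (limma-voom adjusted p = 0.0952) and was called higher by the DESeq2 Wald test (adjusted p = 0.0242). It was also called in the edgeR fit with no filter on low counts (adjusted p = 0.047). With 1 library left out the value ran from 0.36 to 0.54 and was never called. Its sign could hardly turn, because the groups did not overlap. The gene lies on chromosome 10, minus strand, at 21322620 to 21325466, and no other listed gene overlaps it. Its nearest tested neighbours on one side, Tbpl1 at 84027 bases and Slc2a12 at 118570 bases, stood at log2 fold changes of -0.11 and 0.40, and the nearest on the other side, Eya4 at 300724 bases, at -0.50. None of these was called (edgeR adjusted p = 0.738, 0.483 and 0.651).

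Maf was the least abundant of the 5. It had 90.5, 87.0 and 97.5 CPM in cKO libraries, against 63.2, 76.0 and 70.0 CPM in WT libraries, again with every cKO value above every WT value. Means were 91.7 ± 5.35 CPM in cKO and 69.7 ± 6.41 CPM in WT (SD, n = 3 each). The log2 difference was 0.39 (SE 0.119, edgeR adjusted p = 0.115) with a 95% confidence interval from 0.13 to 0.66, and 0 of 16 alternative fits called it, with DESeq2 nearest (adjusted p = 0.0565). The summed level of 11 macrophage markers was 82.2 to 86.4 CPM in cKO and 67.5 to 94.5 CPM in WT. No call was made among the 11 with edgeR, limma-voom or DESeq2. In edgeR 1 was higher at an unadjusted p under 0.05, as were 7.75% of all tested genes. The list median was 0.19, and 7 of the 11 were positive. The most abundant members, Csf1r and C1qa, stood at 0.37 and 0.33 (edgeR adjusted p = 0.305 and 0.625). Whether macrophages contribute to the difference in Maf was not tested. Maf lies on chromosome 8, minus strand, at 122752795 to 122777709, and the antisense gene that overlaps it, Gm15655, had 0 counts in all 6 libraries.

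Some relatives of Maf fell. Mafa encodes a large Maf factor with an activation domain, as Maf does, and is known as an activator of insulin in pancreatic beta cells. It fell to 3.36, 4.92 and 1.61 CPM in cKO libraries, against 25.9, 29.1 and 25.6 CPM in WT libraries, a log2 fold change of -3.04 (SE 0.316, edgeR adjusted p = 0.000365). All 16 alternative fits called it lower. On the scale of the authors' FPKM values, which divide counts by gene length and library size, Mafa had 3.08, 4.52 and 1.48 FPKM in cKO libraries, against 23.6, 26.8 and 23.5 FPKM in WT libraries. Maf had 10.9, 10.5 and 11.7 FPKM in cKO libraries, against 7.54, 9.16 and 8.41 FPKM in WT libraries. In FPKM Mafa thus lay above Maf in every WT library and below Maf in every cKO library. The order in WT rests on the division by gene length, 1080 bases for Mafa and 8241 for Maf. In CPM Mafa lay below Maf in the WT libraries too, where Maf had 63.2, 76.0 and 70.0 CPM. Of the small Maf genes, whose products lack that domain, Mafk fell (log2 fold change -0.91, edgeR adjusted p = 0.0131), and Mafg (0.26, edgeR adjusted p = 0.311) and Maff (-0.27, edgeR adjusted p = 0.616) were not called. The call of Mafk was lost without cKO library 3 or any 1 of the 3 WT libraries (adjusted p = 0.0546 to 0.0753).

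**Figure D2:**
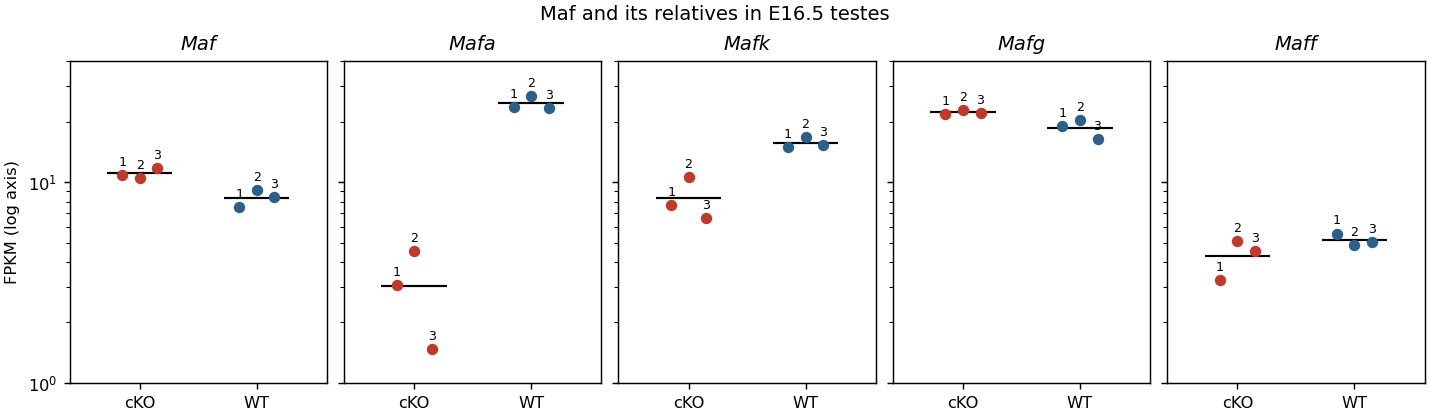
FPKM of Maf and 4 related genes in each library (numbered points; log axis), with cKO in red to the left of WT in blue and group means as lines. Mafa lies at 1.48 to 4.52 FPKM in cKO and 23.5 to 26.8 FPKM in WT, while Maf lies at 10.5 to 11.7 FPKM in cKO and 7.54 to 9.16 FPKM in WT.

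Dlk1 showed both the highest fold change and the widest spread of the 4 genes whose groups were apart. It had 1179, 1549 and 1614 CPM in cKO libraries, against 698, 1160.0 and 875 CPM in WT libraries. The lowest cKO value, of library 1, lay 18.6 CPM above the highest WT value, of library 2. Means were 1447 ± 235 CPM in cKO and 911 ± 233 CPM in WT (SD, n = 3 each), a fold change of 1.59 (95% interval 1.18 to 2.14; log2 fold change 0.67, SE 0.196; edgeR adjusted p = 0.106). Dlk1 was not called by the main edgeR fit or limma-voom (limma-voom adjusted p = 0.0914), and was called higher by DESeq2 (adjusted p = 0.0124). It was also called higher by edgeR without a low-count filter (edgeR adjusted p = 0.000543), with replicate number as a block (0.0166) and without cKO library 1 (0.0416). Without 1 library its log2 fold change ran from 0.51 (without WT library 1) to 0.89 (without WT library 2). The gene lies on chromosome 12, plus strand, at 115078997 to 115089655.

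Dlk1 is imprinted and transcribed from the paternal chromosome, and the noncoding gene Meg3 at the same locus from the maternal one. Meg3 had 1195, 562 and 999 CPM in cKO libraries, against 758, 632 and 784 CPM in WT libraries, and overlapped between groups (log2 fold change 0.34, SE 0.232, edgeR adjusted p = 0.527). Without cKO library 2, in which it was lowest, its value was 0.60 and was called (edgeR adjusted p = 0.047). Within cKO the pair did not follow one order: library 1 was lowest for Dlk1 and highest for Meg3. Of 16 imprinted growth genes tested, 1 was higher and none lower by edgeR and limma-voom, and 3 higher by DESeq2, with a median log2 fold change of 0.27. The called gene was Cdkn1c, which encodes the cell cycle inhibitor p57, with 233 ± 45.9 CPM in cKO against 127 ± 26.3 CPM in WT (0.87, edgeR adjusted p = 0.0218). Its call was lost without cKO library 3 (adjusted p = 0.0748), WT library 1 (0.103) or WT library 3 (0.12). The abundant Igf2 and Ndn stood at 0.20 and 0.49 and were not called (edgeR adjusted p = 0.655 and 0.115).

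Nes differed from the other 4. It had 130.3, 269 and 161 CPM in cKO libraries 1, 2 and 3, against 152, 170.0 and 159 CPM in WT libraries 1, 2 and 3. The WT libraries lay within 1.12-fold of each other, whereas cKO libraries 1 and 2, the lowest and the highest of the 6, lay 2.07-fold apart. Means were 187 ± 73.0 CPM in cKO and 160.5 ± 9.03 CPM in WT (SD, n = 3 each), and the log2 fold change of 0.22 had an interval from -0.26 to 0.70 (SE 0.219, edgeR adjusted p = 0.687). Without cKO library 2 the sign turned (log2 fold change -0.14, edgeR adjusted p = 0.689). Perivascular markers summed to 728, 790.2 and 850.4 CPM in cKO libraries 1, 2 and 3, with library 2 intermediate. Endothelial markers summed to 943, 780.5 and 936 CPM in the same libraries, with library 2 lowest. In WT these sums were 720 to 830.3 CPM and 767 to 854 CPM. Markers of Schwann cells and neurons summed to 208.9, 211.4 and 195.6 CPM in cKO libraries 1, 2 and 3, with library 2 highest. Their sums in WT were 185 to 206 CPM. Germ cell markers summed to 872, 1643 and 1284 CPM in cKO libraries 1, 2 and 3, in the order of Nes. Their sums in WT libraries were 1414 to 1896 CPM. That order within cKO was not particular to germ cell markers. It was also found for Vim and for the sums of the other interstitial genes and the Notch pathway genes described below. The sum of the paralogues followed it too, but Vim is among them and gave 1068 of its 1552 CPM in cKO library 1. In that library Col1a1 and Col3a1 gave 4677 and 3923 of the 19010 CPM of the other interstitial genes. The part of germ cells in the Nes values was not tested. Vim, which encodes vimentin, the filament protein with which nestin assembles, stood at 1068, 1331 and 1245 CPM in cKO and 947, 1328 and 1074 CPM in WT (log2 fold change 0.12, edgeR adjusted p = 0.769). Nes lies on chromosome 3, plus strand, at 91345616 to 91355253, and its nearest tested neighbour on 1 side, Bcan, fell (log2 fold change -1.65, edgeR adjusted p = 0.00146). Bcan encodes the proteoglycan brevican and is named after its value was seen.

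**Figure D3:**
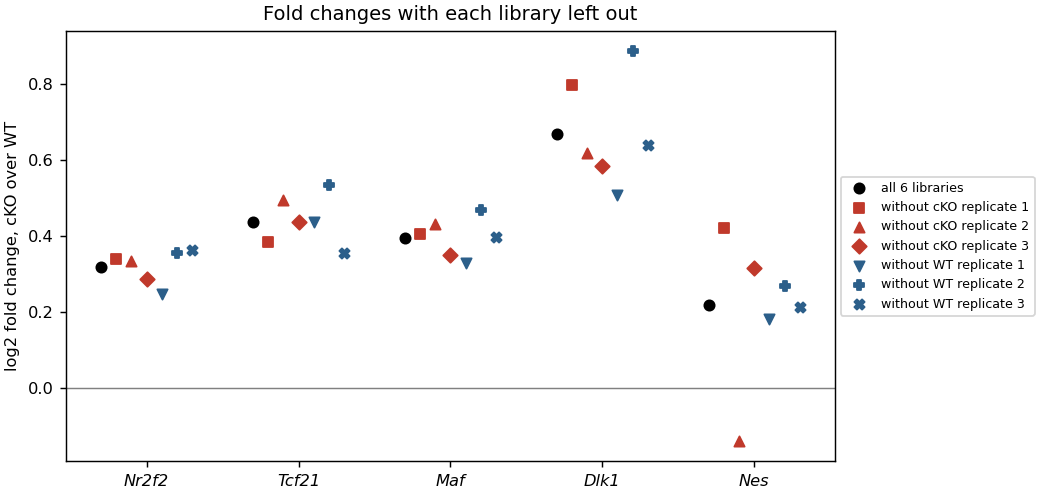
Log2 fold change (cKO over WT, vertical axis) of each of the 5 genes with all 6 libraries (black) and with each library left out in turn (red, a cKO library; blue, a WT library). Nr2f2, Tcf21, Maf and Dlk1 stay above 0 throughout, and Nes falls to -0.14 without cKO replicate 2.

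Levels of different genes were compared per length, as FPKM. Dlk1 (251 ± 40.9 FPKM in cKO and 158 ± 41.0 in WT) and Tcf21 (213 ± 15.9 and 157 ± 18.8) were the highest, followed by Nr2f2 (83.9 ± 3.44 and 67.0 ± 6.30), Nes (27.7 ± 10.9 and 23.8 ± 1.44) and Maf (11.04 ± 0.642 and 8.37 ± 0.808), each as mean ± SD over 3 libraries with cKO named first. Dlk1 and Tcf21 exchanged places: Tcf21 was higher in library 1 of each group and Dlk1 in the other 4 libraries. The order of Nr2f2, Nes and Maf was the same in all 6 libraries and their ranges did not overlap within a group. The ratio of Nr2f2 to Maf in FPKM hardly varied, at 7.49, 7.85 and 7.48 in cKO libraries and 7.93, 7.65 and 8.47 in WT libraries. The ratio of Dlk1 to Nes ranged from 6.73 to 11.7 in cKO and from 5.37 to 7.98 in WT.

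Among 30 other interstitial and stromal progenitor genes, all tested, 3 rose and none fell by edgeR and by limma-voom, and 8 rose and none fell by DESeq2. Of all tested genes, 1.5% rose and 1.84% fell by edgeR, 1.46% and 1.82% by limma-voom, and 2.87% and 3.12% by DESeq2. The same shares are the reference for the counts of calls in the other lists. The median log2 fold change of the 30 was 0.32, against 0.00264 for all tested genes. Of the 30, 22 were positive, against 50.4% of all tested genes. Ptn, which encodes the secreted growth factor pleiotrophin, rose to 471 ± 69.7 CPM in cKO, against 252 ± 59.5 CPM in WT (0.90, edgeR adjusted p = 0.0173), and Lum, which encodes the collagen-binding proteoglycan lumican, to 110.2 ± 21.6 CPM in cKO, against 67.6 ± 3.99 CPM in WT (0.71, edgeR adjusted p = 0.0271). Ptn lost its call without cKO library 3 (adjusted p = 0.105), WT library 1 (0.0964) or WT library 3 (0.115). Lum lost its call without cKO library 1 (0.0503), cKO library 3 (0.147) or any 1 of the 3 WT libraries (0.0932 to 0.144). The count was 0 without cKO library 3, WT library 1 or WT library 3, and 7 without cKO library 2. The abundant collagen genes Col1a1 and Col3a1 stood at 0.70 and 0.56 and were not called (edgeR adjusted p = 0.274 and 0.25). Col1a1 was called without cKO library 1 (adjusted p = 0.0339). Nr2f1, the close paralogue of Nr2f2, stood at 22.7, 16.0 and 20.2 CPM in cKO libraries, against 10.8, 10.6 and 13.4 CPM in WT (0.76, edgeR adjusted p = 0.0636), and was called without cKO library 2 (adjusted p = 0.0189). In FPKM Nr2f1 made up 5.09 ± 0.864% of the sum of Nr2f1 and Nr2f2 in cKO and 3.81 ± 0.409% in WT (SD, n = 3 each).

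**Figure D4:**
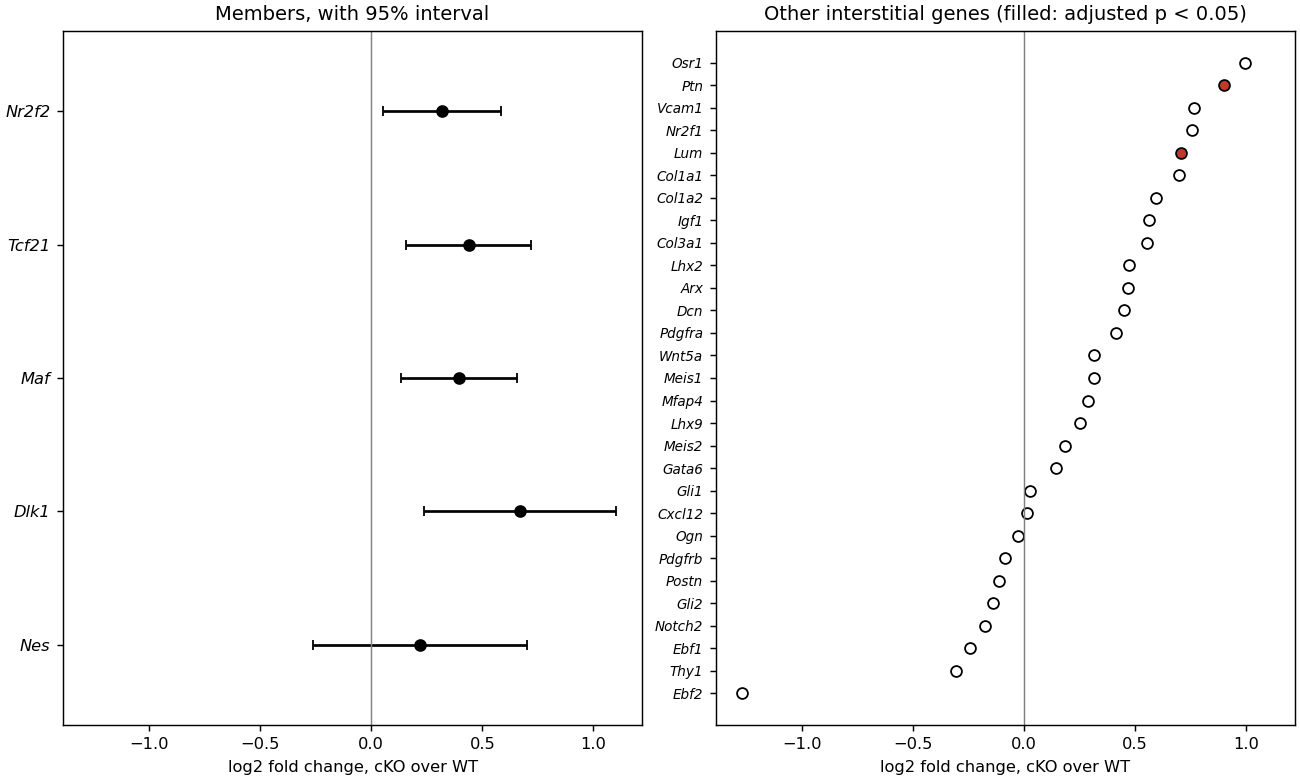
Log2 fold changes (cKO over WT). Left, the 5 genes with their 95% intervals. Right, other interstitial and stromal genes, filled where the edgeR adjusted p was under 0.05. Most lie right of 0, and the filled points are Ptn and Lum.

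Of 17 tested paralogues of the 5 genes, 2 rose and 2 fell by edgeR and limma-voom, and 3 rose and 3 fell by DESeq2 (list median 0.21). Among the calls, beside Mafa and Mafk, was Des, which encodes the muscle filament protein desmin, a relative of nestin, with 47.9 ± 8.08 CPM in cKO against 29.0 ± 2.46 CPM in WT (0.72, edgeR adjusted p = 0.0276). Des lost its call without cKO library 1 (adjusted p = 0.055) or any 1 of the 3 WT libraries (0.0809 to 0.152). The abundant Nr2f6, a further relative of Nr2f2, was not called (0.25, edgeR adjusted p = 0.54).

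Of 12 genes of fetal Leydig cells, which arise in part from these progenitors, 2 rose and none fell by edgeR, 4 rose by DESeq2 and 3 by limma-voom (list median 0.36). Fdx1 and Por, electron donors of the steroidogenic enzymes, were the calls (0.85 and 0.59, edgeR adjusted p = 0.00732 and 0.0442). Fdx1 lost its call without WT library 1 (adjusted p = 0.0509) or WT library 3 (0.0576), and Por without any 1 library other than cKO library 1 (0.0724 to 0.236). Insl3, the hormone of testis descent, averaged 574 ± 47.4 CPM in cKO, against 368 ± 85.2 CPM in WT (0.64, edgeR adjusted p = 0.0687) and was called without WT library 2 (adjusted p = 0.028). Cyp17a1 was not called (0.25, edgeR adjusted p = 0.553). The summed level of the 12 genes was 6670.0 to 8703 CPM in cKO and 5073 to 6070 CPM in WT, highest in cKO library 1. Among cKO libraries, that library was lowest for Dlk1, Nr2f2 and Nes, intermediate for Maf and highest for Tcf21.

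**Figure D5:**
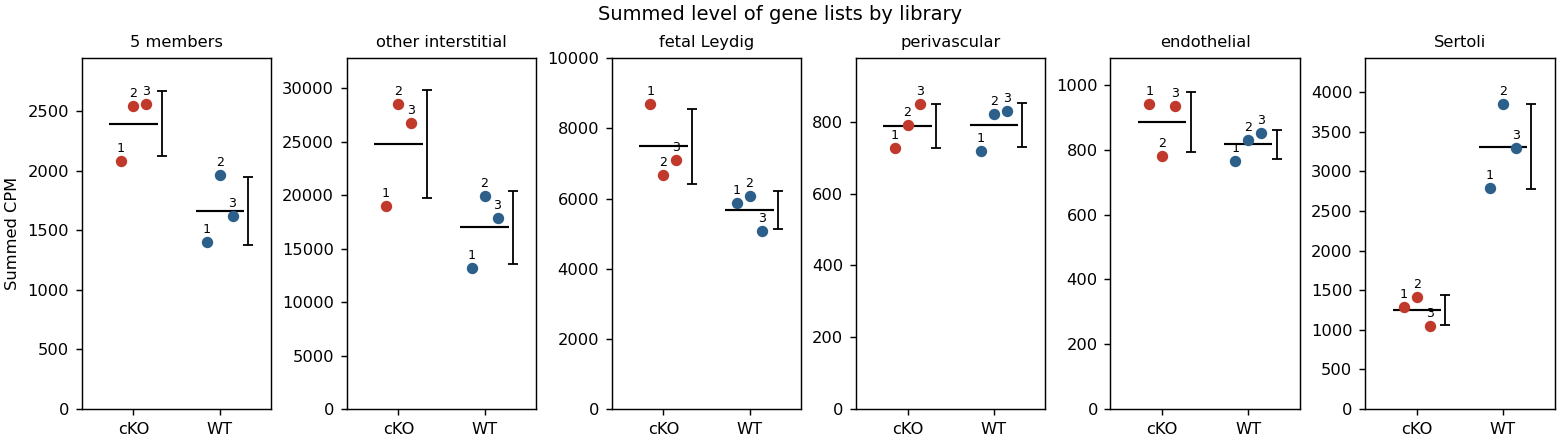
Summed CPM of 6 gene lists in each library (numbered points), with cKO in red to the left of WT in blue, group means as lines and 1 SD as bars (n = 3 each). The 5 genes sum to 2080 to 2564 CPM in cKO and 1401 to 1965 CPM in WT, and Sertoli cell markers lie lower in cKO.

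Of 12 tested Hedgehog pathway genes, 2 rose and 3 fell by edgeR and limma-voom, and 3 rose and 3 fell by DESeq2 (list median 0.01). Dhh, the ligand made by Sertoli cells, fell to 46.7 ± 13.9 CPM in cKO, against 137 ± 13.1 CPM in WT (-1.56, edgeR adjusted p = 0.000966). Hhip and Ptch1, which encode Hedgehog-binding proteins and are themselves targets of the pathway in interstitial cells, fell by 1.55 and 0.87 on the log2 scale (edgeR adjusted p = 0.0025 and 0.00947). Ptch1 lost its call without cKO library 3 (adjusted p = 0.0701), WT library 2 (0.0522) or WT library 3 (0.0607). The coreceptor genes Gas1 and Cdon rose by 0.75 and 0.55 (edgeR adjusted p = 0.0114 and 0.0472). Gas1 lost its call without cKO library 3 (0.0614), WT library 1 (0.0712) or WT library 3 (0.0838), and Cdon without any 1 library other than cKO library 2 (0.0522 to 0.256). Gli1, a transcriptional target and effector of the pathway, averaged 222 ± 36.0 CPM in cKO, against 218 ± 4.37 CPM in WT (0.03, edgeR adjusted p = 0.947).

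Of 16 tested Notch pathway genes, 1 fell and none rose by edgeR and limma-voom, and 1 rose and 2 fell by DESeq2 (list median 0.06). The called gene was Heyl, a target of Notch signalling in vessel walls, with 97.5 ± 9.26 CPM in cKO against 148 ± 16.9 CPM in WT (-0.60, edgeR adjusted p = 0.0266). Heyl lost its call without cKO library 3 (adjusted p = 0.0914) or any 1 of the 3 WT libraries (0.0531 to 0.161). The abundant receptor genes Notch3 and Notch2 stood at 0.44 and -0.17 and were not called (edgeR adjusted p = 0.121 and 0.562). Heyl and Notch3 are also on the list of 10 perivascular markers, of which Heyl was the 1 edgeR and limma-voom call (DESeq2 called 2 higher and 1 lower; list median 0.07), and Mcam was not called (-0.24, edgeR adjusted p = 0.338).

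Of 13 endothelial markers, Kdr, a VEGF receptor gene, rose (0.66, edgeR adjusted p = 0.0157), and Cdh5 and Eng stood at -0.12 and -0.15 (edgeR adjusted p = 0.836 and 0.736). Over the 13 the median log2 fold change was 0.25, 8 were positive, edgeR and limma-voom each called 1 higher, DESeq2 called 2 higher, and none was called lower. Kdr lost its call without cKO library 3 (adjusted p = 0.0977), WT library 1 (0.0964) or WT library 3 (0.104). Among 8 peritubular myoid and smooth muscle markers, edgeR, limma-voom and DESeq2 made no call and no unadjusted p was under 0.05 (list median -0.03). Acta2, Tagln and Mylk stood at -0.19, 0.02 and 0.20 (edgeR adjusted p = 0.634, 0.96 and 0.519). None of 10 tested germ cell markers was called by edgeR or limma-voom (list median -0.31), while DESeq2 called 1 lower and 2 had an unadjusted p under 0.05. Mael, Piwil2 and Piwil4 stood at -0.42, -0.38 and -0.60 (edgeR adjusted p = 0.24, 0.371 and 0.139). Of 9 markers of mesonephros and ducts, Emx2 rose (1.06, edgeR adjusted p = 0.00839), a call that was lost without WT library 3 (adjusted p = 0.0576). Krt8 and Krt18, the most abundant of the 9, stood at -0.56 and -0.26 (edgeR adjusted p = 0.165 and 0.52), while the other 7 were positive. The list median was 0.29, edgeR and limma-voom each called 1 higher, DESeq2 called 2 higher, and none was called lower. The summed level of the 9 was 124 to 133 CPM in cKO and 102 to 110.3 CPM in WT. These groups did not overlap, which was also the case for the sums of the 5 genes and of the fetal Leydig cell genes. Of 8 tested markers of Schwann cells and neurons, where Nes is also active, Tubb3 and Sox10 fell by 1.48 and 1.85 on the log2 scale and Ngfr rose by 0.62 (edgeR adjusted p = 0.00229, 0.00711 and 0.0207), with a list median of -0.53 and 1 call higher and 4 lower by DESeq2. Ngfr lost its call without cKO library 3 (0.0867), WT library 1 (0.0872) or WT library 3 (0.121). Sox10 averaged 3.09 ± 0.898 CPM in cKO, against 11.2 ± 3.07 CPM in WT. The summed level of the list was 196 to 211 CPM in cKO and 185 to 206 CPM in WT. Of 5 tested adrenal markers, Pnmt fell by 4.16 on the log2 scale (edgeR adjusted p = 0.000568), and Cyp11b1 and Akr1b7 were not called (0.40 and -0.18, edgeR adjusted p = 0.623 and 0.857; list median -0.18). No list held a gene at 0 in all libraries. Whether changes of the other cell types contribute to the values of the 5 genes was not tested.

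The genes whose levels followed each of the 5 most closely were found among 12100 protein-coding genes of at least 5 CPM, by the root mean square difference between log2 CPM values centred on each gene's mean, over the 6 libraries. For Nr2f2 they were Sh3bgrl3, Peg3 and Satb1 (0.0327 to 0.035 log2 units), and Peg3 is an imprinted gene transcribed from the paternal chromosome, as Dlk1 is. For Tcf21 they were Ebpl, Fam214b and Dgkq (0.0377 to 0.0467), and for Maf they were Reck, Nlgn2 and Eml1 (0.0284 to 0.0348). Dlk1 was followed by Blvrb and Npy2r, among others (0.0555 and 0.0779). The profile of Nes, high in cKO library 2 alone, was met by 2010107E04Rik, a gene listed without a symbol, and Tsfm (0.0486 to 0.0741). None of the genes named for likeness was called by edgeR (adjusted p = 0.109 to 0.62). They were picked for values close to those of genes that were not called, so this largely follows from the selection.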

How the data were processed

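Polyadenylated RNA of whole E16.5 testes (3 cKO and 3 WT libraries, each from its own mouse as far as the series design says) was sequenced on an Illumina NovaSeq, per the labels. The submitters' processing notes name HISAT2 2.0.5 and GRCm38. No counting tool or strand setting was stated there. The deposited identifiers are those of the C57BL/6NJ annotation (41096 of 42747 rows), and 0 of 24685 genes shared by symbol with the GRCm38.p6 RefSeq table had the same start, so the builds were kept apart. The authors deposited whole-number counts per gene and FPKM values, which equalled count over length and over a library denominator of 0.968 to 1.05 times the count total.

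Counts were fitted in R 4.3.3 with edgeR 4.0.16 (filterByExpr, TMM, glmQLFit, glmQLFTest, no covariate), adjusted by Benjamini-Hochberg over 18383 genes, with a threshold of 0.05. SE is the absolute log2 fold change over the square root of F. CPM uses TMM-scaled totals. Alternatives were DESeq2 1.42.0, limma 3.58.1 (voom, and trend on log2(FPKM + 0.1) or log2(FPKM + 1)), other scalings, other filters, a replicate block and each library left out. On data simulated for the cKO against WT comparison (17902 genes, 200 changed), edgeR called 55% of those with a log2 change of 1 and 82% of those with a log2 change of 2, and 12 of its 149 calls were false. Recovery was not measured for smaller changes, such as the log2 fold changes of 0.22 to 0.67 of the 5 genes. Tested genes had a median of 282 to 329 counts per library, so counting error was small beside the remaining spread between libraries (biological coefficient of variation 19.7%). Replicates differed beyond sampling noise and each counted once. The p-values measure the spread between these libraries. The 5 genes and all lists were chosen with earlier results of these data known. The genes named were the 5, and from each list the called genes (at most 6), the 2 most abundant, the 1 with the smallest p, and Mafa, Nr2f1, Meg3, Igf2 and Csnk1a1. The genes most like each of the 5 were named too, up to 3 each. A few genes that this rule takes are not reported here. Mafg, Maff, Tbpl1, Slc2a12, Eya4 and Bcan are named outside that rule. Symbols with no match in the files were not used here.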

Additional observations from a re-analysis of the deposited data

How the results depend on the processing

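The number of genes called was 1101 with DESeq2, 1264 with no low-count filter, and 372 (pseudocount 0.1) or 397 (pseudocount 1) with limma-trend on log2 FPKM, and ran from 272 to 723 with 1 library left out (615 in all libraries). The number of other interstitial genes called was 8 with DESeq2, 11 with no filter, 0 and 0 on the FPKM scales, 6 with the replicate block, and 0 to 7 with 1 library left out. Tcf21 was called at log2 fold changes of 0.44 with DESeq2 and 0.44 with no filter. Dlk1 was called at 0.67 with DESeq2, 0.67 with no filter and 0.69 with the replicate block (edgeR adjusted p = 0.0166). The cause of these differences was not tested. With 1 library left out, values ran from 0.25 to 0.36 for Nr2f2, 0.36 to 0.54 for Tcf21, 0.33 to 0.47 for Maf, 0.51 to 0.89 for Dlk1 and -0.14 to 0.42 for Nes. Nr2f2 and Maf kept their direction and stayed uncalled in all 16 alternatives. Since their groups did not overlap, leaving out 1 library could hardly turn that direction. The labels do not state whether replicate numbers pair the libraries. Same-numbered cKO and WT libraries correlated at 0.0171 to 0.184 across genes in their deviations from the group means. The cKO libraries 2 and 3 correlated best with the WT library of the same number (0.184 and 0.0325). In contrast, cKO library 1 correlated best with WT library 3 (0.157). With 3 libraries per group these values cannot decide whether the numbers pair. With the replicate block 696 genes were called.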
